A study of Homo sapiens with 8 samples.

Results

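The control cultures of a study on the esophageal epithelium are described here from their own libraries alone, namely the 4 libraries labelled CTRL out of 8 in the series. They were chosen by that label, and no library of the other group enters any value. The sequenced cells were EPC2-hTERT, a human line of esophageal epithelium immortalised with telomerase reverse transcriptase and raised as a 3-dimensional culture at the air-liquid interface. The cells sat on inserts with 0.4 µm pores. They were kept for 2 days in serum-free keratinocyte medium with 50 µg/mL bovine pituitary extract and 1 ng/mL epidermal growth factor (EGF), and for 5 days in medium with 1.8 mM calcium. They were then exposed to air from above, with 900 µL of medium left below. The genotype label of all 4 is Control. The labels do not say which control construct, if any, the cells carried, nor whether the 4 libraries came from separate cultures, so the spread between them may be partly technical. All come from 1 epithelial cell line, which stands for 1 genetic background, and the protocol names no other cell type in the culture.

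The esophagus is lined by a stratified squamous epithelium. Its basal cells divide and hold on to the basement membrane, and cells that leave the basal layer stop dividing, change their keratins, build desmosomes and fill with proteins that transglutaminases cross-link into an envelope beneath the membrane. In the esophagus the suprabasal cells normally make the keratin pair KRT4 and KRT13 and stay uncornified, whereas in skin they make KRT1 and KRT10 and end as dead cornified plates. Raised calcium and exposure to air both drive keratinocytes to stratify in culture.

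Library totals were 34.1, 34.2, 52.7 and 38.8 M (mega) counts for CTRL replicates 1 to 4, a mean of 39.98 ± 8.79 M (SD, n = 4). Of 58735 genes listed, 12030 reached 1 CPM (counts per 1000000 counts of a library) in every one of the 4 libraries and are called detected here, and 32961 had 0 reads in all 4. Among protein-coding genes, 11074 of 19951 (55.5%) were detected and 4232 (21.2%) had 0 reads. Counts of detected members in the gene lists below are read beside that 55.5%. The tight junction (47.4%), gap junction (50%), EGF family (60%), S100 (61.9%) and proliferation (45.8%) lists lay near it. A count of 3 reads, taken as the floor of what a count of 0 allows, corresponded to 0.0576 to 0.0883 CPM, which covers counting error only. Mitochondrially encoded genes held between 1.23% and 2.78% of the counts and cytosolic ribosomal proteins 4.49 ± 0.186% (SD, n = 4). Levels of different genes are compared below only after division by the deposited gene length, as transcripts per 1000000 (TPM, the length-scaled level, which has the same sum in each library). Ratios of the highest to the lowest library for 1 gene use CPM. Where the libraries are printed in TPM for 1 gene, they are compared on the length-scaled level only. The highest library stood at least 2-fold above the lowest, which is called past 2-fold below, in 434 of the 12030 detected genes (3.61%), and the median of this ratio was 1.23.

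A small set of genes, among them short barrier transcripts and keratins, made up much of the control transcriptome on the length-scaled level. The 20 genes with the highest length-scaled level held 36.3 ± 0.783% of it (SD, n = 4), and between 57 and 65 genes sufficed for 50% of it in each library. S100A9, a calcium-binding subunit of the antimicrobial complex calprotectin, was highest on the length-scaled level with 47161, 42070, 45966 and 55357 TPM in replicates 1 to 4, and its partner S100A8 had 19763 ± 1510 TPM (SD, n = 4). KRT6A, a keratin of activated and wounded epithelium, followed with 39087, 36266, 33872 and 32343 TPM. SLPI and PI3 (elafin), secreted inhibitors of neutrophil elastase, had 34337 ± 4296 and 29257 ± 2719 TPM (SD, n = 4).

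S100A9 was first in every library, whereas the order of KRT6A and SLPI, of PI3 and KRT16, of KRT16 and SPRR2E and of SPRR2E and KRT17 changed from library to library. PI3 was above KRT17 in all 4. KRT16, the type I partner of KRT6A, had a length-scaled level of 27744 ± 3504 TPM. SPRR2E, a small proline-rich envelope precursor, had 26256 ± 2852 TPM, and KRT17, a further activation keratin, had 25281 ± 1416 TPM (SD, n = 4 for each). The ranks 9 to 20 were taken by SPRR1B, LCE3D, SPRR2D, SPRR2A, MT-CO1, KRT14, HSPB1, SPRR1A, MT-CO2, KRT6B, KRT5 and MT-RNR2, between 17718 and 6874 TPM. The deposited length of SPRR1A is only 270 bases, and a short length raises the length-scaled level. Its mean was 8923 TPM but 842 CPM, which ranked it 128 by counts.

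**Figure D1:**
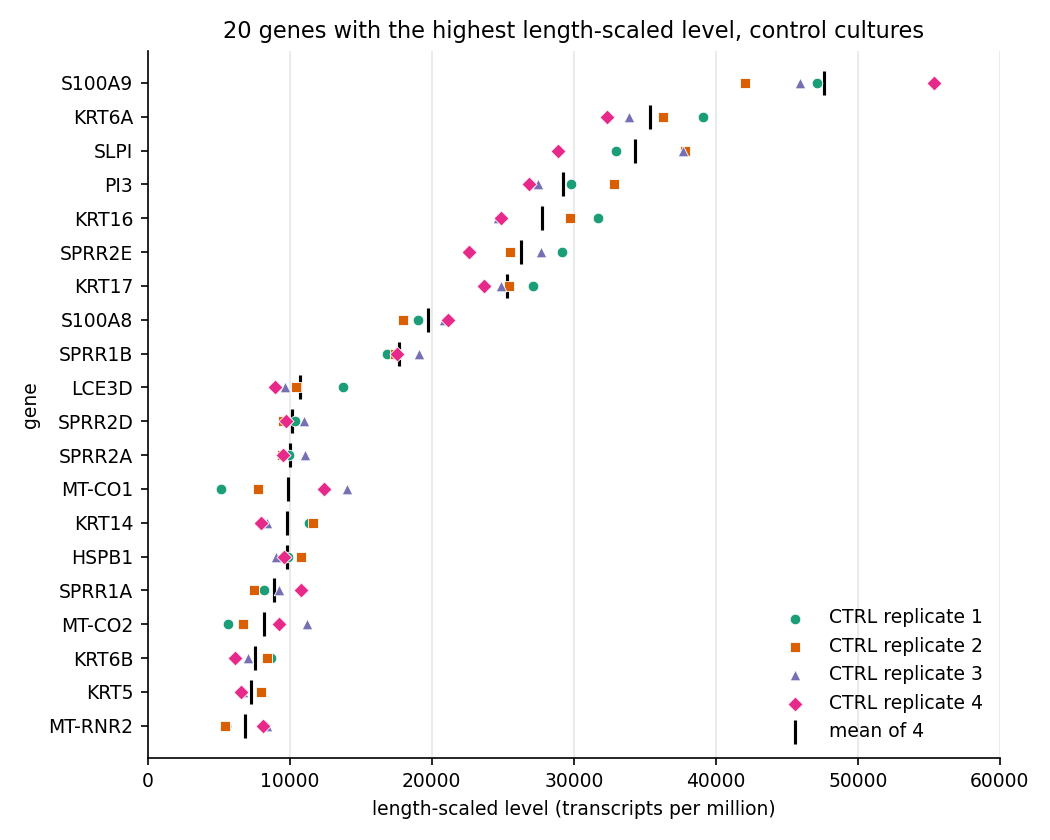
Length-scaled level in TPM (horizontal axis, linear) of the 20 genes with the highest mean, 1 row per gene, with 1 symbol per CTRL replicate and a black bar for the mean of 4. S100A9 is highest in each library (42070 to 55357 TPM), and MT-CO1, from 5160 to 14015 TPM, has the largest SD relative to its mean among the 20 (41.6%).

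By reads alone the order differed, because long transcripts collect more of them. KRT6A led with 36152 ± 2581 CPM, and KRT17, KRT16, KRT5, the translation factor EEF1A1, S100A9, the desmosome protein PERP, KRT14, desmoplakin (DSP) and SLPI followed. The next 10 were S100A8, SPRR2E, KRT6B, PI3, the small heat shock protein HSPB1, MT-CO1, plakophilin 1 (PKP1), TPT1, the cathepsin inhibitor cystatin B (CSTB) and SPRR1B. Together the 20 most counted genes held 20.3 ± 0.867% of all counts (SD, n = 4). The lists of 20 by counts and by length-scaled level shared 14 genes, and each held 6 keratins.

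Of the 20 genes with the highest length-scaled level, 8 lie in the epidermal differentiation complex, a cluster of envelope and S100 genes on chromosome 1. Taken from S100A10 to S100A1, it spans 1.649 Mb (GRCh38, chromosome 1 from 151982915 to 153632039) and holds 90 listed genes, 64 of them protein-coding and 54 detected. These genes made up 19.74%, 17.98%, 19.20% and 19.01% of the length-scaled level in replicates 1 to 4. The 4 libraries thus lay within 2 percentage points of each other. By counts the share was 4.91 ± 0.152% (SD, n = 4).

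To show the regulatory stretches in front of leading genes of the complex that hold a searched motif, the 150 bases before the annotated start of S100A9, SPRR1A, SPRR1B and SPRR2A are given 5′ to 3′ on the gene's strand (RefSeq, GRCh38.p14). Capitals mark matches, on either strand, to TATAAA, the consensus of the TATA box, and to TGANTCA, the core bound by AP-1 factors.
S100A9 (chr1:153357704-153357853, plus strand): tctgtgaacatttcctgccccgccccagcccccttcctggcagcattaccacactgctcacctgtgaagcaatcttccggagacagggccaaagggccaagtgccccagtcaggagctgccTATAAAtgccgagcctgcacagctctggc
SPRR1A (chr1:152983931-152984080, plus strand): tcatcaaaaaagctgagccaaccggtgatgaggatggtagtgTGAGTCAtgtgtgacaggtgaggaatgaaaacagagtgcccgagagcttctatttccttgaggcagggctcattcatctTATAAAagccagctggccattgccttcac
SPRR1B (chr1:153031053-153031202, plus strand): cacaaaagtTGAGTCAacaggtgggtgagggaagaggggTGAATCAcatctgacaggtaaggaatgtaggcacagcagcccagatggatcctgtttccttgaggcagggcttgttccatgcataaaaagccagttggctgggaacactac
SPRR2A (chr1:153057513-153057662, minus strand): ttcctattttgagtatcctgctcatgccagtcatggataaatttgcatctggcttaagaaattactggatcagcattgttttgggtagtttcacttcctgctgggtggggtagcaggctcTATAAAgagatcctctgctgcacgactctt

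The match to TATAAA in S100A9, SPRR1A and SPRR2A stands close before the start, and SPRR1B has TGANTCA matches but no TATAAA. S100A8 and LCE3D, leading genes of the complex that also had an entry, held neither motif and are not printed. Both motifs were searched on both strands in the 250 bases before the start, with a promoter counted once however many matches it held. TATAAA was found in 15 of 22 promoters (68.2%) of detected small proline-rich and late cornified envelope genes, and in 11.1% of all 27305 promoters of the table. TGANTCA was found in 6 of the same 22 (27.3%) and in 6.596% of all. A TATAAA match did not go with detection among keratins, where it stood in 5 of 12 promoters of detected and 15 of 22 of undetected genes. Of the 17 nuclear genes among the 20 highest, 8 had an entry, 3 of which held each motif. These matches describe letters in a window and show no binding.

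Keratins, the intermediate filament proteins of epithelia, took 12.3 ± 0.913% of the length-scaled level (SD, n = 4), and 26 of 54 were detected. Keratins of activated epithelium (KRT6A, KRT6B, KRT6C, KRT16 and KRT17) held 81.1%, 79.9%, 80.1% and 76.4% of all keratin in replicates 1 to 4. The basal keratins KRT5, KRT14 and KRT15 held 13.9 ± 1.30% and the epidermal suprabasal keratins KRT1, KRT2, KRT10 and KRT77 held 4.95 ± 3.02%. The mucosal suprabasal keratins KRT4, KRT13 and KRT78 held 0.324 ± 0.0470% (SD, n = 4 for each). Most of this mucosal share was KRT78, with a mean of 0.247%, against 0.0676% for KRT4 and 0.00906% for KRT13. Since KRT6A, KRT6B, KRT6C, KRT14, KRT16 and KRT17 have near-identical relatives or pseudogenes and the handling of reads with several matches is not given in the sources used here, the division among these genes is uncertain.

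**Figure D2:**
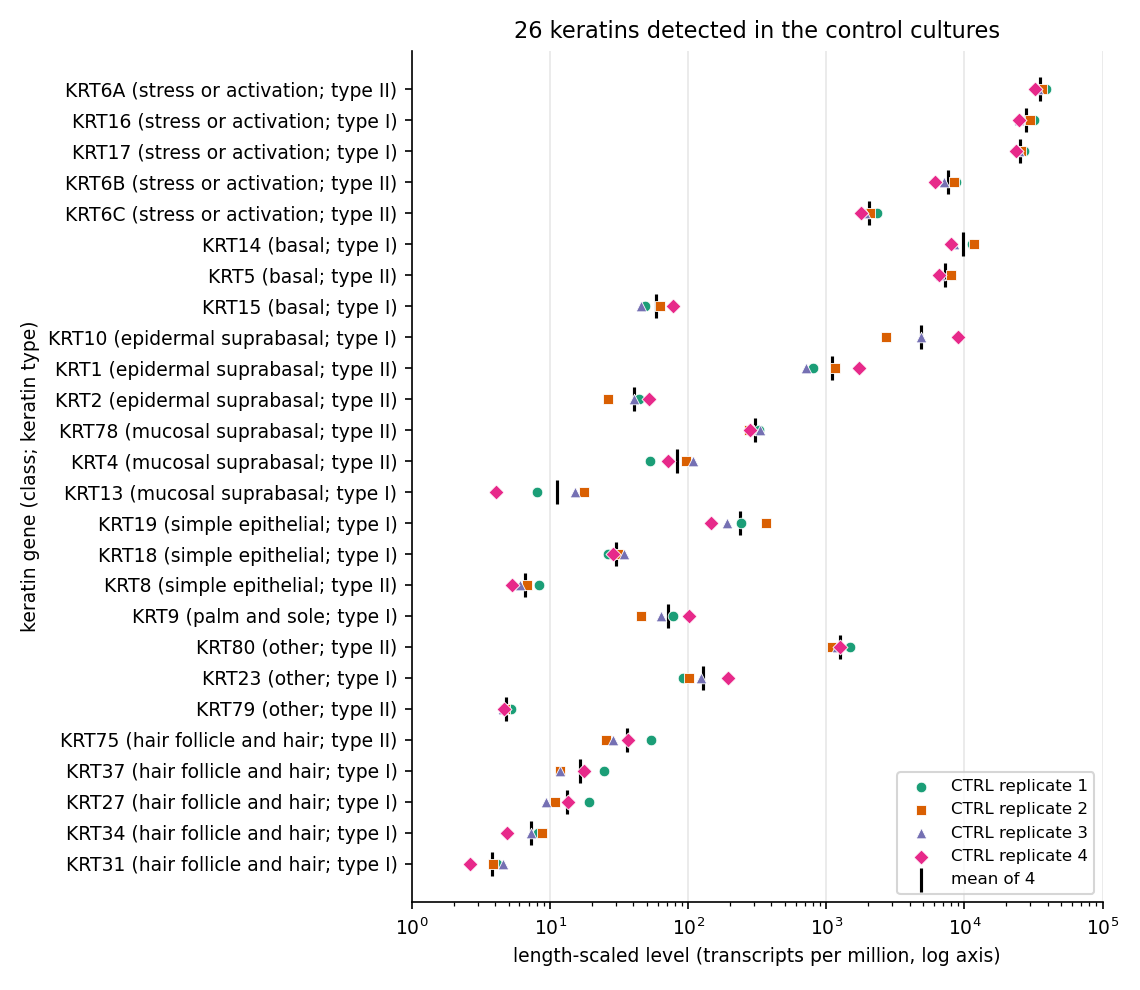
Length-scaled level in TPM (horizontal log axis) of the 26 detected keratins, grouped by class with the keratin type, with 1 symbol per CTRL replicate and a black bar for the mean of 4. KRT6A, KRT16 and KRT17 stand at 23699.5 TPM or more in each library, and KRT13 lies between 4.05 and 17.5 TPM.

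The markers of squamous identity were present in part. KRT5, the basal type II keratin, had a length-scaled level of 7287 ± 779 TPM, and its partner KRT14 had 11340, 11650, 8413 and 7941 TPM in replicates 1 to 4. TP63, the master regulator of squamous basal cells, had 91.7 ± 7.59 TPM, and involucrin (IVL), a scaffold of the envelope, had 1483 ± 207 TPM (SD, n = 4). The keratin pair of normal esophageal suprabasal cells went against the tissue label. KRT13 reached only 8.00, 17.5, 15.1 and 4.05 TPM and KRT4 only 52.6, 97.1, 107 and 71.8 TPM, so that KRT13 ranked 6667 among all genes on the length-scaled level. In bulk RNA, fewer cells of a type and less RNA per cell cannot be told apart.

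KRT10 and KRT1, the main suprabasal pair of skin, stood above KRT13 and KRT4 in every library. KRT10 had 2705, 2699, 4877 and 8988 TPM, which made its length-scaled level 338, 154, 324 and 2221 times that of KRT13 in replicates 1 to 4. Replicate 4 was highest in KRT10 and lowest in KRT13, while replicates 1 and 2 had nearly equal KRT10. KRT1, its type II partner, had 804, 1146, 707 and 1716 TPM, 14.4 ± 7.28 times KRT4 (SD, n = 4). KRT10 shares its locus with TMEM99, and part of their reads cannot be told apart where strand is not given.

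The remaining keratins were lower. KRT80, a keratin of differentiating epithelia, had a length-scaled level of 1261 ± 169 TPM and KRT78 had 304 ± 28.2 TPM (SD, n = 4 for each). KRT15, often used as a marker of quiescent basal cells, was far below KRT14, with 58.7 ± 14.6 TPM and a ratio of KRT14 to KRT15 of 176 ± 54.2. The simple epithelial keratins KRT19, KRT18 and KRT8 had 236 ± 94.6, 29.9 ± 3.54 and 6.61 ± 1.26 TPM, and KRT8 and KRT18 are counted from genes that overlap. KRT23 had 127 ± 45.6 TPM and KRT9, the keratin of palms and soles, had 71.8 ± 23.3 TPM. KRT2, KRT75, KRT37, KRT27, KRT34, KRT79 and KRT31 lay between 40.6 and 3.80 TPM, and KRT3 (1.60 TPM) passed 1 CPM on average but not in every library. KRT12, of cornea, and the hair keratins KRT26, KRT35, KRT39 and KRT85 had 0 reads in all 4 libraries. Other keratins of hair and hair follicle were detected, namely KRT75, KRT37, KRT27, KRT34 and KRT31, 5 of 26 in that class.

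Type II and type I keratins pair one to one in filaments. The sum of type II levels over that of type I was 0.830, 0.818, 0.821 and 0.760 in replicates 1 to 4 on the length-scaled level. Replicate 4 lay below the other 3. Without the 6 genes with near-identical copies the ratio was 2.30. Those 6 include KRT14 but not its type II partner KRT5, so the value of 2.30 does not measure the balance of pairs. For single pairs, KRT5 stood at 0.751 ± 0.0689 times KRT14, and the sum of KRT6A, KRT6B and KRT6C at 0.848 ± 0.0155 times the sum of KRT16 and KRT17 (SD, n = 4).

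Cell contacts were led by desmosomes, the adhesive plaques that anchor keratin filaments. Their list held 1.64 ± 0.124% of the length-scaled level, against 0.356 ± 0.0284% for gap junctions, 0.184 ± 0.00914% for adherens junctions and 0.147 ± 0.00422% for tight junctions (SD, n = 4). Of 15 desmosome genes 14 were detected. PERP, a tetraspan protein of the plaque, was the most even of them with 5405, 5417, 5457 and 5434 TPM. PKP1, desmoplakin (DSP) and plakoglobin (JUP), which link cadherins to keratin, had 2346 ± 234, 2213 ± 242 and 1985 ± 121 TPM (SD, n = 4 for each).

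The desmosomal cadherins differed in level. DSG3, typical of lower layers, had 949 ± 109 TPM and DSG1, typical of upper layers, had 173 ± 39.3 TPM (SD, n = 4), a ratio of 6.96, 6.71, 5.67 and 3.56 in replicates 1 to 4. DSC2 had 666 ± 107 TPM and DSC3 had 321 ± 7.42 TPM. DSC1, a desmocollin of the cornifying layers, was low, with 7.18, 8.14, 8.19 and 23.7 CPM, and replicate 4 stood apart from the other 3. Corneodesmosin (CDSN), the glue of cornified plates, had 2223, 1721, 1288 and 1169 TPM.

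**Figure D3:**
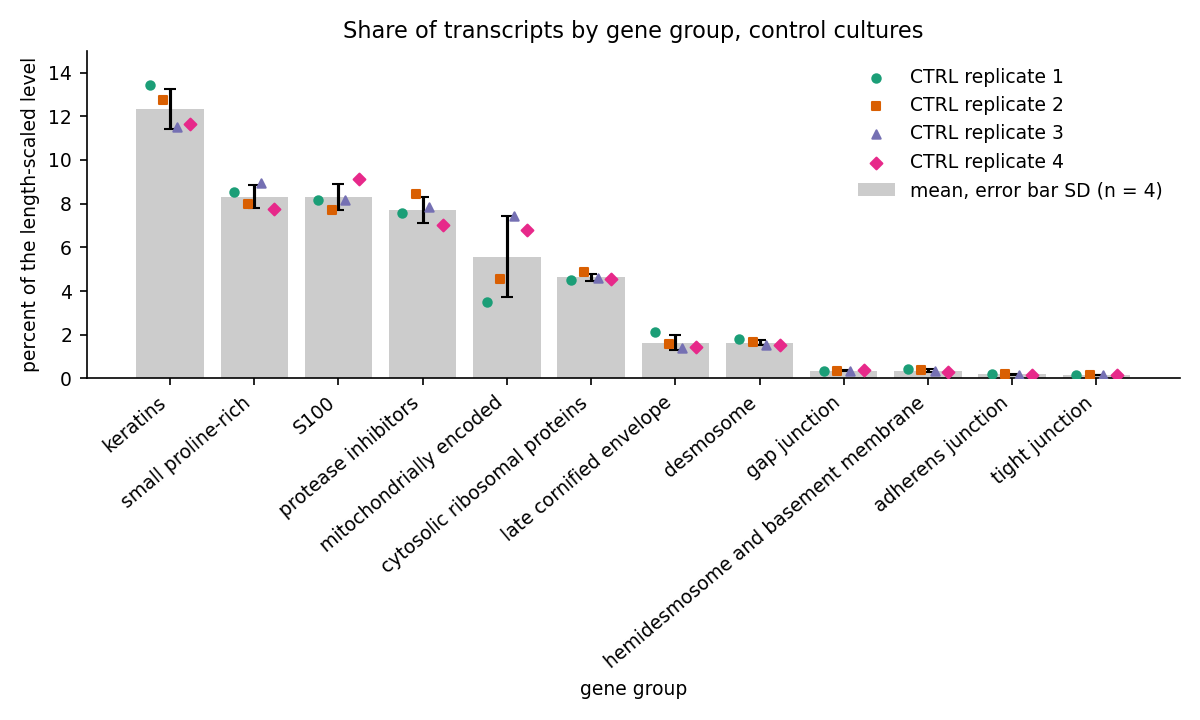
Percent of the length-scaled level held by each gene group (vertical axis), with grey bars for the mean, error bars for the SD of 4 libraries and 1 symbol per CTRL replicate. Keratins hold 12.3%, and the desmosome list (1.64%) exceeds the other junction lists, each under 0.4%.

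Adherens junctions were nearly complete, with 11 of 12 genes detected. NECTIN1, an immunoglobulin-like adhesion receptor, had a length-scaled level of 530 ± 49.0 TPM and E-cadherin (CDH1) had 304 ± 10.3 TPM. NECTIN4 had 272 ± 23.5 TPM and p120 catenin (CTNND1) had 213 ± 10.3 TPM (SD, n = 4 for each). N-cadherin (CDH2), the mesenchymal cadherin, was the 1 member under 1 CPM.

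Of 38 tight junction genes 18 were detected and 10 had 0 reads. CLDN1, a sealing claudin required for the barrier of skin, had 401, 386, 465 and 522 TPM, followed by CLDN17 with 320 ± 42.6 TPM, CLDN4 with 233 ± 34.0 TPM and the tricellular receptor LSR with 104 ± 8.22 TPM (SD, n = 4). CLDN7 was the single detected member past 2-fold between libraries, with 44.2, 76.7, 30.7 and 32.7 CPM, where replicate 2 was highest. CLDN7 overlaps ELP5, whose mean was 17.5 CPM. The genes with 0 reads were CLDN2, CLDN3, CLDN10, CLDN18, CLDN20, CLDN22, CLDN24, CLDN25, JAM2 and ILDR2, among them claudins of leaky and gastric epithelia. Gap junctions, channels between neighbours, were led by connexin 26 (GJB2) with 2729 ± 223 TPM, then GJB6 with 299 ± 48.1, GJA1 with 233 ± 16.9 and GJB5 with 128 ± 5.77 TPM. In that list 8 of 16 genes were detected, and GJB1 and PANX3 were among those with 0 reads.

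Hemidesmosome and basement membrane genes, which fix basal cells to the matrix, had 17 of 18 members detected. LAMB3, a laminin chain of the epithelial basement membrane, had a length-scaled level of 713 ± 136 TPM, collagen XVII (COL17A1) had 562 ± 96.9 TPM and integrin α6 (ITGA6) had 390 ± 27.9 TPM (SD, n = 4 for each). LAMA3, another laminin chain, had 961, 731, 673 and 414 CPM. Replicate 1 was highest and replicate 4 lowest. Over the list, 13 of the 17 detected genes were highest in replicate 1 and 10 were lowest in replicate 4. Among all detected genes, 22.2% were highest in replicate 1 and 25.6% lowest in replicate 4.

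Envelope precursors were detected for 17 of 20 genes. After PI3, the cysteine protease inhibitor cystatin A (CSTA), suprabasin (SBSN) and cornifelin (CNFN) led with 5166 ± 699, 2888 ± 411 and 2678 ± 522 TPM (SD, n = 4 for each). Loricrin (LOR) and filaggrin (FLG), the major envelope and filament-packing proteins of skin, were present at 85.8 ± 11.7 and 58.4 ± 13.2 TPM. IVL exceeded LOR by 17.3 ± 1.27 times on the length-scaled level. KRTDAP, a secreted peptide of differentiating keratinocytes, had 331, 355, 640 and 946 CPM, with replicates 3 and 4 above replicates 1 and 2, and TCHHL1 had 0 reads.

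Of 8 transglutaminases, the enzymes that cross-link the envelope, 4 were detected. TGM1, the membrane-bound form, led with 654 ± 55.1 TPM (SD, n = 4). TGM3 had 71.2, 42.4, 72.0 and 27.5 CPM, TGM5 had 25.6 ± 4.05 TPM, and TGM2 was scarce at 1.08 to 4.75 CPM and overlaps RPRD1B. TGM6 and F13A1 had 0 reads.

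All 11 small proline-rich genes, flexible spacers of the envelope, were detected, and together they held 8.54%, 8.00%, 8.94% and 7.77% of the length-scaled level in replicates 1 to 4. After SPRR2E and SPRR1B (17718 ± 989 TPM) came SPRR2D and SPRR2A with 10151 ± 668 and 9998 ± 747 TPM (SD, n = 4). SPRR3, the member most typical of esophagus, had 1665, 2526, 2630.2 and 1727 TPM and stood below SPRR1B by 8.60 ± 1.76 times. No member passed 2-fold between libraries. Members of the SPRR2 group are close copies of each other, and reads may have been divided among them.

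The late cornified envelope genes, precursors added last in skin, were of unlike level. LCE3D and LCE3E, of the LCE3 group that is known from injured and psoriatic skin, had length-scaled levels of 10707 ± 2127 and 4498 ± 1037 TPM (SD, n = 4). LCE3A followed at 483 ± 256 TPM, with a deposited length that is 270 bases too, and LCE3B had 0 reads. The 10 LCE1 and LCE2 genes, which lie from 152663396 to 152827894 on chromosome 1, were each between 14.8 and 139 TPM. LCE1A led them with 147, 93.4, 109 and 207 TPM.

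Replicate 4 was the highest library in all 10 LCE1 and LCE2 genes. These genes are related and lie together, and the handling of reads with several matches is not given, so they are not 10 separate observations. LCE1C had 8.71, 7.45, 10.1 and 27.8 CPM in replicates 1 to 4 and LCE2B had 9.09, 13.8, 10.4 and 29.5 CPM. LCE2A had the widest ratio of highest to lowest library, 4.66, at a mean of 3.23 CPM, and LCE2D the narrowest, 2.02. With LCE6A, 11 of the 14 detected late envelope genes passed 2-fold with replicate 4 highest, where 1.32% of all detected genes did. LCE3A, which passed 2-fold too, was highest in replicate 1 with 80.7, 35.0, 32.9 and 33.1 CPM.

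The S100 family had 13 of 21 members detected. S100A11, S100P and S100A14 followed the calprotectin pair with length-scaled levels of 5530 ± 478, 2654 ± 264 and 2358 ± 238 TPM (SD, n = 4 for each). S100A9 stood at 2.41 ± 0.179 times S100A8. S100A7 (psoriasin), an antimicrobial member, had 107, 61.5, 184 and 180 CPM, and S100A6 had 417, 541, 365 and 251 CPM. These were the members past 2-fold, and replicates 3 and 4 were high in S100A7 while replicate 4 was low in S100A6. S100B and S100A7L2 had 0 reads.

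Antimicrobial genes were detected for 12 of 19 members, led by S100A9, SLPI, PI3 and S100A8. Lipocalin 2 (LCN2), an iron-siderophore trap, had 2714 ± 467 TPM and the ribonuclease RNASE7 had 250 ± 68.4 TPM (SD, n = 4). LTF and DCD had 0 reads.

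Protease inhibitors held 7.72 ± 0.590% of the length-scaled level (SD, n = 4), with 17 of 19 detected. Beyond SLPI, PI3 and CSTA, CSTB had 2863 ± 231 TPM and SPINK5 (LEKTI), an inhibitor of kallikreins, had 1960.3, 1739, 2001 and 2537 TPM. SPINK7, an inhibitor known from the esophagus, had 461 ± 69.5 TPM. WFDC12 was the detected member past 2-fold, with 164, 289, 117 and 139 CPM.

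The proteases that release surface cells were detected for 19 of 21 genes and at lower level. KLK5, KLK7 and KLK10 had 286 ± 63.1, 280 ± 44.5 and 274 ± 40.5 TPM, and prostasin (PRSS8) had 244 ± 33.6 TPM (SD, n = 4 for each). The 6 members past 2-fold were KLK6, KLK13, KLK14, CTSV, TMPRSS11B and TMPRSS11E. CTSV had 256, 267, 148 and 120 CPM, with replicates 1 and 2 above replicates 3 and 4.

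Genes of barrier lipid synthesis, which make and process the ceramides of skin, had 17 of 18 members detected, and none of the 17 passed 2-fold. ELOVL4 and ELOVL1, fatty acid elongases, had 276 ± 28.9 and 232 ± 19.9 TPM, ALOX12B, a lipoxygenase, had 166 ± 19.2 TPM and CYP4F22, an ω-hydroxylase, had 157 ± 30.9 TPM (SD, n = 4 for each). In 11 of the 17 replicate 4 was highest, where 25.3% of all detected genes had it highest. In 13 of the 17 replicate 2 was lowest, where 26.6% of all did.

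Transcription factors of squamous epithelium were detected for 27 of 31. PITX1, KLF5, KLF4 and EHF led with length-scaled levels of 896 ± 87.0, 374 ± 22.2, 314 ± 53.3 and 237 ± 17.5 TPM (SD, n = 4 for each). SOX2, which specifies the esophagus in the foregut, was low at 12.05 ± 2.11 TPM. GATA3 was the detected member past 2-fold, with 1.71, 1.15, 1.77 and 2.37 CPM. NKX2-1, a factor of lung and thyroid, had 0 reads.

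Basal progenitor genes were detected for 13 of 15, with KRT14, KRT5, COL17A1 and ITGA6 highest and none past 2-fold. Proliferation genes were detected for 11 of 24 (45.8%), near the 55.5% of all protein-coding genes, and those detected were mostly of the early cycle. PCNA, the sliding clamp of replication, had a length-scaled level of 78.6 ± 8.15 TPM, cyclin D1 (CCND1) 26.9 ± 3.10 TPM, MCM7 26.4 ± 1.24 TPM and cyclin E1 (CCNE1) 19.0 ± 0.668 TPM (SD, n = 4 for each). MKI67, a marker of cycling cells, had 5, 1, 0 and 0 reads in replicates 1 to 4. TOP2A, a topoisomerase of the late cycle, had 9, 14, 6 and 3 reads. MCM5 was the detected member past 2-fold, with 7.47, 6.76, 4.84 and 3.55 CPM.

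The cells carried a high level of the inhibitor of cyclin-dependent kinases CDKN1A (p21), with 2125, 2132, 2097 and 2309 CPM in replicates 1 to 4. TERT, the catalytic subunit of telomerase by which the line was immortalised, had 546, 476, 618 and 667 CPM. Transcripts of the introduced and the resident gene cannot be told apart in gene counts. CDKN2B, a further such inhibitor, had 141 ± 14.9 TPM and MYC had 208 ± 51.3 TPM (SD, n = 4).

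The EGF family list, of ligands and the receptors EGFR and ERBB2 to ERBB4, had 9 of 15 genes detected. Among ligands, amphiregulin (AREG) had 741 ± 152 TPM and TGFA had 238 ± 14.9 TPM (SD, n = 4). HBEGF had 89.3, 115, 171 and 237 CPM and EREG had 140, 175, 266 and 311 CPM. For both, replicate 4 was highest and replicate 1 lowest, and both passed 2-fold. The receptors ERBB2, ERBB3 and EGFR had 66.3 ± 7.04, 54.8 ± 3.12 and 36.4 ± 4.67 TPM, and NRG3 had 0 reads.

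Genes known from eosinophilic esophagitis and type 2 inflammation were detected for 9 of 25. After SPINK7, the receptor chains IL4R and IL13RA1 had 52.1 ± 4.95 and 45.1 ± 2.89 TPM and their signal transducer STAT6 had 27.1 ± 2.18 TPM (SD, n = 4 for each). The cytokines IL4 and IL13, the chemokine CCL11 and the receptor CRLF2 had 0 reads. CCL24, an eosinophil chemokine, had 2.00, 1.93, 1.96 and 4.45 CPM, with replicate 4 apart. Of 10 surface mucins, MUC15 (144 ± 28.6 TPM) and MUC21 (1.80 ± 0.681 TPM) were detected, and MUC3A, MUC4 and MUC12 had 0 reads.

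Markers of other cell types were mostly absent. Over 10 lists with 161 distinct genes, 76 had 0 reads in all 4 libraries and 21 were detected. No gene of the airway, lymphocyte, or eosinophil and mast cell lists was detected. The summed length-scaled level ranged from 0.494 to 0.853 TPM for 14 airway genes, from 0.207 to 0.922 TPM for 14 lymphocyte genes and from 0.123 to 0.263 TPM for 14 eosinophil and mast cell genes. Of the last list 13 genes, including CLC, EPX, KIT, CPA3, TPSAB1 and TPSB2, had 0 reads.

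**Figure D4:**
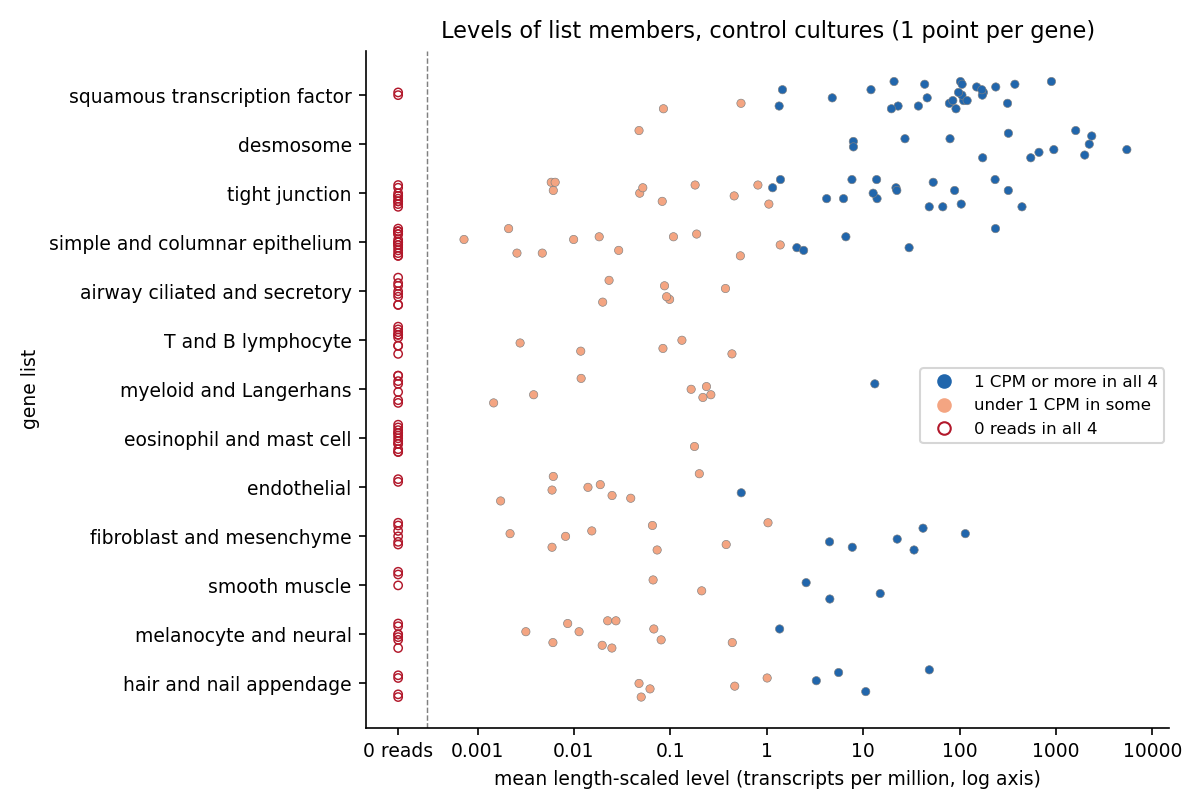
Mean length-scaled level over 4 CTRL libraries (horizontal log axis, TPM) of each member of 3 squamous lists (top) and 10 lists of other cell types, with genes at 0 reads in all 4 set apart on the left. Blue points reached 1 CPM in each library, and of the 161 distinct genes in the lower lists 21 did.

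Single members stood out from otherwise silent lists. CD14, a receptor for bacterial lipopolysaccharide, had 13.2 ± 1.36 TPM (SD, n = 4), while CD163, TYROBP, AIF1, CD207, CD1A, CD1C and ELANE of the same myeloid list had 0 reads. VWF was the detected endothelial gene at 0.544 ± 0.0934 TPM, and CDH5 and PLVAP had 0 reads. PMEL, which overlaps CDK2, was the detected gene of 19 for melanocytes and nerve, whose summed level ranged from 1.74 to 2.41 TPM. SMTN, ACTA2 and TAGLN were detected among 8 smooth muscle genes (19.9 to 23.9 TPM in sum), where DES, LMOD1 and MYOCD had 0 reads. DLX3, FOXN1, MSX2 and HOXC13 were detected among 13 hair and nail genes (60.1 to 77.8 TPM in sum). HOXC13 was low, at a mean of 2.75 CPM, and overlaps HOXC13-AS, whose mean was 2.97 CPM. In the hair and nail list the keratin-associated genes KRTAP1-1, KRTAP1-5, KRTAP3-1 and KRTAP5-1 had 0 reads.

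In the list for simple and columnar epithelium, 17 of 33 genes had 0 reads, among them CDX1, CDX2, HNF4A, MUC2, MUC6, TFF1, TFF2 and OLFM4 of gut and stomach. Detected were KRT19, KRT18, KRT8, FOXA2 and EPCAM, of which KRT19, at 236 TPM, made most of the summed 187 to 410 TPM. Of 20 mesenchymal genes 6 were detected, with 197 to 267 TPM in sum. SNAI2, a repressor also made by basal keratinocytes, had 115 ± 11.9 TPM (SD, n = 4). Collagen I was one-sided, since COL1A1 had 4906, 4395, 4860 and 3755 reads in replicates 1 to 4 and the other chain of that collagen, COL1A2, had 0 in each. COL3A1, COL5A1, DCN, LUM and THY1 also had 0 reads.

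The 4 libraries were close but distinct. Every pair differed by more than counting error, with a chi-square per degree of freedom between 15.8 and 55.5, so none is a copy of another. Across 12030 genes, which are not independent replicates, Pearson's r of log2 CPM was between 0.990 and 0.995 for the 6 pairs. The common biological coefficient of variation, the relative SD that counting error leaves unexplained, was 0.124. Of the 434 genes past 2-fold, 159 were highest in replicate 4, 127 in replicate 2, 89 in replicate 1 and 59 in replicate 3.

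Replicates 1 and 2 resembled each other most, with 37 genes past 2-fold between them. Which pair was least alike depended on the measure. Replicates 1 and 4 had the most genes past 2-fold, 193, whereas the median absolute log2 difference was largest between replicates 1 and 3 (0.158, against 0.146 for 1 and 4). The leading principal component, with 51.2% of the variance, placed replicates 1 and 2 at −12.9 and −12.7 and replicates 3 and 4 at 10.1 and 15.5. The mitochondrial share of counts followed the same division, with 1.23% and 1.64% against 2.78% and 2.50%, and its part in the spread was not tested. The next component (28.96%) set replicate 3 at −15.0 apart from replicate 4 at 12.2. For a given gene, leaving out a library can only lower or keep the ratio of highest to lowest library. Without replicate 4, 225 genes passed 2-fold, and without replicates 1, 2 and 3 in turn 305, 324 and 305 did.

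The gene lists differed in how many members passed. Members and lists were chosen with earlier results of these data known, so the counts below describe the lists and test nothing. Passing also depends on level, since of the 8332 genes with a mean of 10 CPM or more 148 passed. Read against the 3.61% of all detected genes, late cornified envelope genes passed 2-fold in 12 of 14, shedding proteases in 6 of 19, and transglutaminases in 2 of 4. No gene passed among 11 small proline-rich, 17 barrier lipid, 11 adherens junction and 8 gap junction genes, lists too short for a count of 0 to stand apart from that share. The median ratio of highest to lowest library was 2.78 among the detected late envelope genes, 1.47 among small proline-rich, 1.35 among barrier lipid, 1.19 among gap junction and 1.16 among adherens junction genes, beside 1.23 over all detected genes. Over all lists, 40 of 272 distinct detected genes passed 2-fold, 18 of them with replicate 4 highest and 11 with it lowest. Of all detected genes, 1.32% passed with replicate 4 highest and 1.07% with it lowest.

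**Figure D5:**
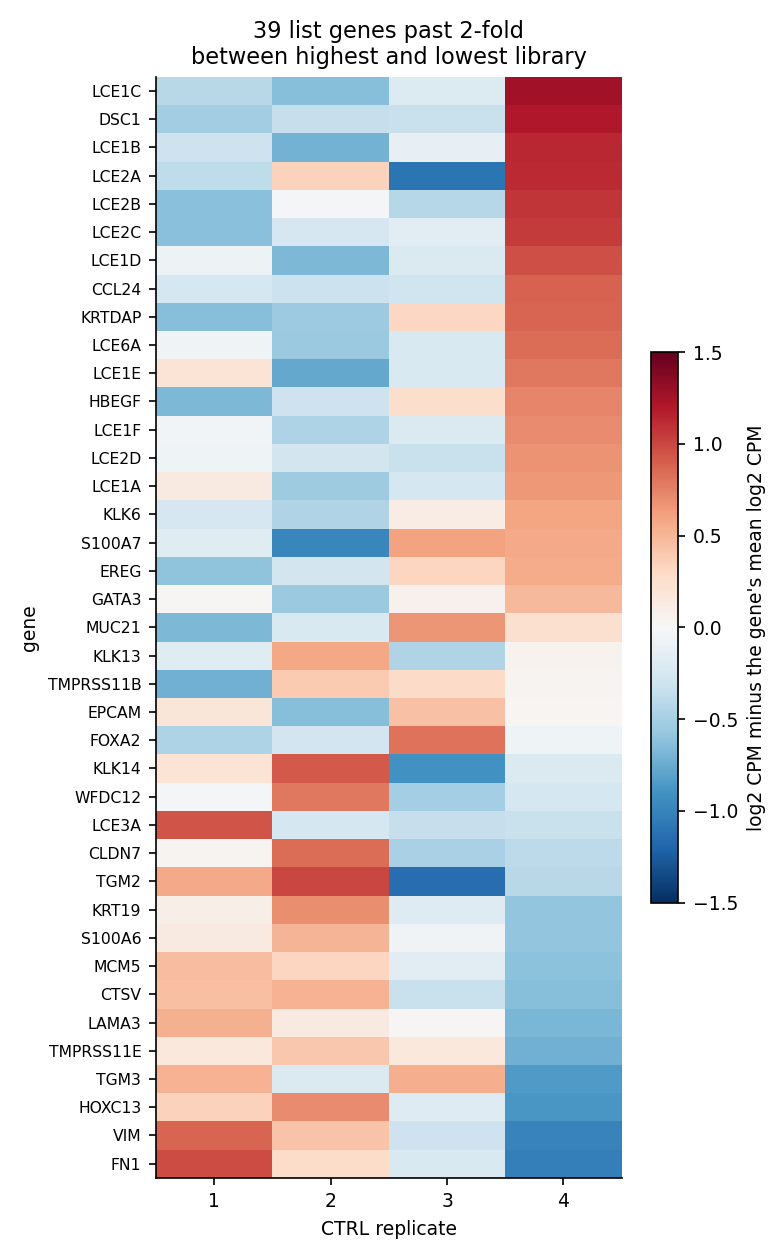
Deviation of log2 CPM from the mean of the gene (colour) for 39 of the 40 list genes past 2-fold, 1 row per gene ordered by replicate 4 and 1 column per CTRL replicate. Of these 39, 18 are highest in replicate 4, led by LCE1C and DSC1, and 10 are lowest there, ending with VIM and FN1.

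Among the 8332 genes with a mean of 10 CPM or more, the widest spread was in LGALS7B, a galectin of stratified epithelium, with 18.5, 48.1, 46.1 and 130 CPM. Its near-identical copy LGALS7 makes this ratio of 7.04 uncertain, as SMN2 does for SMN1 (3.91). RN7SL2, the RNA of the signal recognition particle, had 292, 282, 46.2 and 121 CPM, high in replicates 1 and 2. Genes low in replicate 4 were G0S2, ADIRF, KRT13, NT5E, FN1 and VIM. Fibronectin (FN1) had 436, 270, 189 and 109 CPM and vimentin (VIM), a filament of mesenchymal and migrating cells, had 65.92, 48.53, 28.999 and 17.99 CPM.

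The AP-1 factors FOSB and FOSL1 were also among the 15 widest. FOSB had 5.44, 6.96, 19.3 and 22.6 CPM and FOSL1 had 13.2, 20.7, 28.9 and 47.7 CPM. FOSB overlaps ERCC1, whose own ratio was 1.11. The remainder of the 15 widest were LCE1C, LCE1B, KRT10 and AC006064.4, the last antisense to GAPDH. At the other end, the 10 most even genes included XAB2, CDR2L, UBR7, SUMF1, SUPV3L1, LEMD3, PPP1R14B, SERPINB7 and GTF2A1. SERPINB7, a serpin of the upper epidermis, had 1230, 1233, 1249 and 1253 CPM.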

How the data were processed

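RNA sequencing was used from the 4 CTRL libraries of EPC2-hTERT cultures. The deposited raw counts are whole numbers of reads per Ensembl gene, with each gene's position, type and length beside them, per the file headers. Reads were handled with featureCounts 1.5.0-p3, HISAT2 2.0.5 and DESeq2 on GRCh38, as listed in the submitters' processing notes. Strand, the treatment of reads with several matches and the annotation release are not given in the sources used here. The deposited gene length equals the merged exon length of GENCODE release 29 for 58724 of 58735 genes, so it rises with the number of isoforms. The authors' table of scaled values was not used.

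CPM used library sizes scaled by TMM (edgeR 4.0.16, R 4.3.3). The length-scaled level is the count over gene length, scaled to the same total in each library. Detected means 1 CPM in all 4 libraries. Dispersion came from edgeR with an intercept only, tested on simulated data. With 1 group there is no comparison between groups and no p-value: values are means ± SD over 4 libraries. Depth was 34.1 to 52.7 M (mega) counts per library. Alternatives were TMM against total counts or DESeq2 1.42.0 size factors, filters, gene lengths and leaving out each library. Tables and figures were made with pandas 2.3.3, numpy 2.4.6 and matplotlib 3.10.9 in Python 3.11.15.

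Named genes were the 20 highest by CPM and by length-scaled level, keratins at a mean of 1 CPM, the 4 highest members of each of 31 lists and members past 2-fold, the 15 widest and 10 narrowest genes at a mean of 10 CPM, list members with 0 reads, and the squamous markers. Not every gene so named is reported here, and further list members were picked with their values in view. The 544 list entries and the 54 keratins were all matched by symbol. Members and lists were chosen with earlier results of these data known. Promoters came from RefSeq (GRCh38.p14), matched by symbol for 22 of the 11 SPRR and 14 LCE genes detected, and for 12 of 26 detected keratins.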

Additional observations from a re-analysis of the deposited data

Results flagged for a closer look

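In 15 of 201 values examined (7.46%), 1 of the 4 libraries lay far from the other 3, with a gap, as a share of the whole range, above Dixon's critical value for 4 samples. Chance flags about 1 in 20 groups that were not chosen by their values. The values here included genes picked for a wide spread in these data, and some repeat each other. The 7.46% therefore cannot be set against that rate, and most single values here carry little weight. The library apart was replicate 4 in 12 values, replicate 1 in 2 and replicate 3 in 1.

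Replicate 4 was apart in keratin balance. Type I keratins held 56.8% of keratin there against 54.7% to 55.0% in the other 3, and type II keratins 43.2% against 45.0% to 45.3%, which is the same fact counted from the other side. KRT10 stood at 2221 times KRT13 on the length-scaled level, against 154 to 338 times, and KRT4 at 17.7 times KRT13, against 5.55 to 7.13 times. KRT3 was lower in replicate 4, at 0.643 CPM against 1.44 to 1.58 CPM.

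Replicate 4 was also apart, and highest, in 4 genes of late differentiation. LCE1C had 27.8 CPM against 7.45 to 10.1 CPM, LCE2C had 27.0 against 8.47 to 11.6 CPM, DSC1 had 23.7 against 7.18 to 8.19 CPM, and the kallikrein KLK7 had 296 against 211 to 224 CPM. Other late genes did not follow, since CDSN (1048 CPM), LCE3D (1930.0 CPM), TGM3 (27.5 CPM) and RPTN (345 CPM) were lowest in replicate 4, and FLG (316 CPM), FLG2 (126 CPM) and CNFN (679.7 CPM) were highest in replicate 1. The cell cycle inhibitors CDKN1A and CDKN2B had 2309 CPM against 2097 to 2132 CPM, and 232 CPM against 188 to 190 CPM. The chemokine CCL24 had 4.45 CPM against 1.93 to 2.00 CPM.

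Replicate 1 was apart in LCE3A, with 80.7 CPM against 32.9 to 35.0 CPM, and in KRT79, with 4.56 CPM against 4.08 to 4.16 CPM. Replicate 3 was apart in VWF, with 1.497 CPM against 2.07 to 2.19 CPM.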

How the results depend on the processing

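Among recomputed values, 63 stayed within a set limit and 11 did not. The 63 include 27 recounts of list members at 0.5 CPM and several rescalings that moved the libraries little. The tally is therefore no measure of stability. The limit was the SD between libraries for shares and ratios, and 1.5 times for counts. For the common biological coefficient of variation it was the SD of its own values with each library left out. Leaving out 1 library can hardly move a mean of 4 by their SD, so those shares and ratios stayed within it by construction. With the longest transcript in place of the deposited length, the keratin share was 13.7% (12.3% with the deposited length) and the ratio of type II to type I keratins 0.676 (0.807). Without keratins with near-identical copies that ratio was 2.30, a setting that removes KRT14 but keeps its partner KRT5 and so does not measure the balance of pairs. By raw counts the basal share of keratin was 15.4% and the mucosal share 0.372%. The 434 genes past 2-fold became 101 with a filter of 10 CPM in all 4 and 12172 with no filter and a prior count of 0.5, where genes of few reads enter. Leaving out each library in turn, which can only lower or keep the ratio of a given gene, gave 225 to 324 genes. With replicate 4 left out there were 225. The common biological coefficient of variation was 0.142 over all genes with at least 1 read, and 0.117 to 0.127 with each library left out. At 0.5 CPM, 27 of 28 lists kept their count of detected members within 1.5 times, and the melanocyte and neural list went from 1 to 2. LCE1 and LCE2 genes were highest in replicate 4 in 10 of 10 under total counts, DESeq2 size factors and the length-scaled level, which were chosen after seeing the data. TMM factors lay between 0.988 and 1.016 and DESeq2 factors between 0.989 and 1.014, and a gene's length is the same in each library. These settings could therefore hardly change the order of the libraries, and the 10 of 10 adds no separate support. No paired analysis was possible because only 1 group was used. At these depths 0 reads allows up to 0.0883 CPM in the shallowest library, and levels set by gene length, near-identical copies or overlapping genes are uncertain.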

Other observations

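Some list members that did not reach 1 CPM in every library, chosen here after their values were seen, differed widely in reads between the 4 libraries. DEFB103A, the gene of the antimicrobial peptide β-defensin 3, had 12, 11, 7 and 266 reads in replicates 1 to 4. Its near-identical copy DEFB103B had 18, 6, 9 and 6 reads, and the division of reads between the copies is uncertain. S100A7A, a relative of psoriasin, had 22, 3, 95 and 110 reads, low in replicate 2 as S100A7 was. IL13RA2, a receptor chain that binds IL-13 and is known as a decoy, had 25, 27, 58 and 1 reads. ARG1, an arginase of upper epidermal layers, had 8, 10, 36 and 63 reads, and SPINK6, an inhibitor of kallikreins, had 15, 74, 16 and 11.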
